A study of Oryza sativa with 12 samples.

Results

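Aquaporins are membrane channels that let water, and in some cases small uncharged solutes, pass along their gradients. In plants the plasma membrane intrinsic proteins (PIPs) sit mainly in the outer cell membrane, and the tonoplast intrinsic proteins (TIPs) sit mainly in the membrane of the vacuole, which swells as embryo cells elongate. The NOD26-like intrinsic proteins (NIPs) include channels for silicon, boron and other small solutes, and the small basic intrinsic proteins (SIPs) were placed in the endoplasmic reticulum in Arabidopsis.

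The rice aquaporin family was followed here across embryos that germinated with or without glucose, in air, with an uncoupler or under AC. Members were the rows of the expression table that map to 1 gene whose symbol or synonym is PIP, TIP, NIP or SIP with its 2-part number, with or without the prefix Os. The rule found 27 of 36643 rows, each for a different gene, with 3 PIP1, 8 PIP2, 8 TIP, 6 NIP and 2 SIP members. The same names mark 29 genes in the RefSeq gene table, of which OsTIP5;1 and OsNIP3;3 have no row here. Genes are written with the hyphen that this table also lists, so that TIP2-2 is the gene OsTIP2;2 there. No sequences are shown.

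Total RNA came from embryos of Oryza sativa, cultivar Dongjin, kept for 24 h in the dark at 28 °C, and was measured on 12 arrays, 2 for each of 6 conditions. All media held 10 mM calcium chloride. GlcAC and MtlAC held 60 mM glucose or 60 mM mannitol under AC. GlcDNP and MtlDNP held the same sugars and 0.08 mM 2,4-dinitrophenol (DNP), an uncoupler that lowers the yield of ATP from respiration, in air. Glc and Mtl held 60 mM glucose or 60 mM mannitol in air without DNP. Mannitol is a sugar alcohol, used at the same concentration as glucose, so that no condition was without an osmolyte. The labels do not spell out AC, and it is read here as the submerged incubation in nitrogen-flushed medium that their protocol describes. Each RNA came from 150 to 200 embryos.

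The design text calls the 2 arrays of a condition technical replicates. The p-values therefore measure the spread between arrays, and the spread between separate batches of embryos was not measured. The median log2 value of an array was 3.23 to 3.31. The SD within an array was 1.64 to 1.67 in the 4 DNP arrays and 1.67 to 1.77 in the 4 AC arrays. It was 1.81 to 1.86 in the 4 arrays in air without DNP. Arrays of the same condition had correlations of 0.95 to 0.976 with each other over all rows. Marker genes were matched by symbol or synonym alone, so that a match may be another gene of that name. The 10 embryo marker genes include oleosin, late embryogenesis abundant and dehydrin genes. Their mean level on an array was 5.90 to 6.60 under AC, 6.91 to 7.04 with DNP and 5.30 to 5.48 in air without DNP. Markers of endosperm, the starchy storage tissue of the grain, numbered 10. Their mean level was 1.94 to 2.74 under AC, 2.27 to 2.57 with DNP and 1.87 to 2.20 in air without DNP. These levels lay near the lower quartile of all values. At most 2 of the 10 were called in any pairwise comparison. Those 2 were lower in GlcAC than in MtlAC, where 0.393% of all rows were called lower. The median difference of the 10 was -0.58 there. The mean of 4 green shoot markers was 1.66 to 2.22, with none called in a pairwise comparison. In such whole embryos, fewer cells of a type and less RNA per cell cannot be told apart.

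A log2 difference of 1 is a fold of 2. A row was called when limma's adjusted p was under 0.05 and its log2 difference was at least 1, and only called differences are described as rises or falls. Levels are compared for 1 gene between conditions and never between genes.

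Across the 6 conditions, 9 of the 27 aquaporin genes differed by limma's F test with a range of condition means of at least 1, while 24.3% of all rows did so. They were the TIPs TIP2-2, TIP1-1, TIP1-2, TIP3-1 and TIP3-2, the PIP1 genes PIP1-1 and PIP1-2, the PIP2 gene PIP2-1 and the NIP gene NIP1-1. The highest condition mean was that of Mtl in TIP2-2, TIP1-1, PIP1-2, PIP1-1 and PIP2-1. In PIP2-1, NIP1-1 and PIP1-1 all 4 arrays in air without DNP lay above the other 8, in PIP1-1 by a narrow margin between 2.91 in Glc and 2.87 in GlcDNP. In TIP1-2, TIP3-1 and TIP3-2 the highest conditions were GlcDNP and MtlDNP. No member had its highest mean in GlcAC or MtlAC. The lowest mean was that of GlcAC in 9 members, Glc in 8, Mtl in 6 and MtlDNP in 2. GlcDNP and MtlAC were lowest in 1 member each. These ranks include differences that were not called, and such ranks were not counted over all rows.

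**Figure D1:**
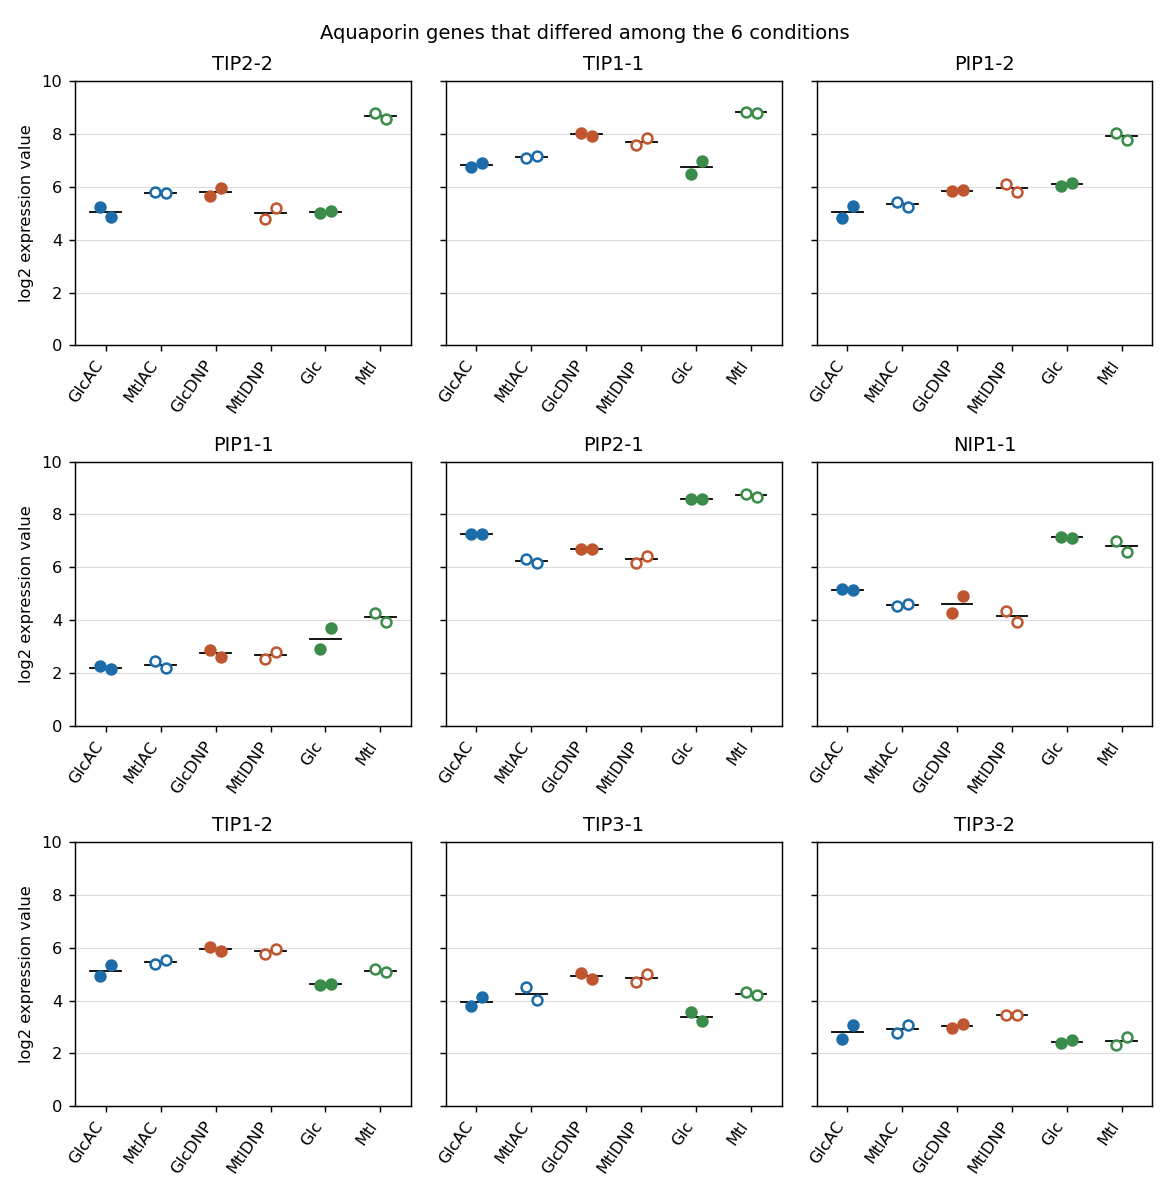
Log2 expression value (vertical axis) on each array of the 9 aquaporin genes called by the F test, by condition (horizontal axis). Points are arrays, filled for glucose and open for mannitol; bars are the mean of the 2 arrays; blue is AC, orange DNP and green air without DNP. TIP2-2 stood at 8.80 and 8.56 in Mtl and at 4.79 to 5.94 on the other 10 arrays.

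The first comparison asked which aquaporin genes responded to glucose in air. Of the 27 members 3 fell with glucose and none rose: TIP2-2 and TIP1-1 of the vacuolar membrane and PIP1-2 of the plasma membrane. Over all rows 2.00% were called, 1.53% lower and 0.469% higher. The median log2 difference was -0.04 in the family and 0.04 over all rows.

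TIP2-2 (LOC4340941), of the TIP2 class that carries water and ammonia in Arabidopsis, stood at 5.00 and 5.07 in the Glc arrays, against 8.80 and 8.56 in the Mtl arrays. The arrays lay far apart, and glucose embryos had a 12.5-fold lower level (log2 difference -3.65 ± 0.21 SE, limma adjusted p = 1.89e-05). TIP1-1 (LOC4331608), of the TIP1 class that marks lytic vacuoles in Arabidopsis, stood at 6.49 and 6.99 in Glc, against 8.84 and 8.80 in Mtl. Its fall with glucose was 4.22-fold (-2.08 ± 0.20, limma adjusted p = 0.000369). PIP1-2 (LOC9270874) stood at 6.04 and 6.15 in Glc, against 8.05 and 7.78 in Mtl, 3.53-fold lower with glucose (-1.82 ± 0.20, limma adjusted p = 0.000944). PIP1 proteins are known in maize to reach the plasma membrane together with PIP2 partners.

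In the other subfamilies no sugar difference in air was called. SIP2-1 (LOC4332668) stood at 1.79 and 2.43 in Glc, against 3.77 and 4.21 in Mtl. The groups did not overlap, but the difference of -1.88 ± 0.46 missed the threshold (limma adjusted p = 0.0741). Its level was under the lower quartile of all values in 2 conditions. Its arrays differed by 1.09 in GlcAC and by 1.25 in MtlAC, and without either MtlAC array the adjusted p from limma was 0.0433. Among NIPs the widest difference was that of NIP1-2 (0.65), and among PIP2 genes that of PIP2-6 (-0.44). PIP1-3, known as the water channel RWC3, stood at 3.92 and 5.24 in Glc, against 3.85 and 4.05 in Mtl, so that its 2 Glc arrays differed by 1.32. Without Glc replicate 1 it was called higher with glucose (1.29 ± 0.19, limma adjusted p = 0.0164).

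Glucose and mannitol were also compared within the DNP media and within the AC media, which bear on cellular energy and oxygen. No aquaporin gene was called with DNP, where 0.0136% of all rows were, 0.0109% higher and 0.00273% lower. None was called under AC, where 2.66% of all rows were, 2.27% higher and 0.393% lower. At an unadjusted p under 0.05 limma gave 4 members in each. Over all 36643 rows it gave 2622 with DNP and 6177 under AC, so that the same count stands beside a larger background under AC. TIP2-2 stood at 5.64 and 5.94 in GlcDNP, against 4.79 and 5.20 in MtlDNP (0.80 ± 0.21, limma adjusted p = 0.454). Under AC it stood at 5.23 and 4.84 in GlcAC, against 5.80 and 5.77 in MtlAC (-0.75 ± 0.21, limma adjusted p = 0.09). In neither pair did the arrays overlap, and the sign differed between them. TIP1-1 showed differences of 0.29 ± 0.20 with DNP and -0.31 ± 0.20 under AC, and PIP1-2 of -0.09 ± 0.20 and -0.28 ± 0.20.

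PIP2-1 (LOC4343122), a plasma membrane water channel gene, had the widest sugar difference of the family under AC. Its levels were 7.24 and 7.26 in GlcAC, against 6.33 and 6.18 in MtlAC. The arrays lay apart, with a log2 difference of 0.996 ± 0.16 that passed the adjusted p from limma (0.00932) and lay just under the size threshold. Without MtlAC replicate 1 the difference was 1.07 and the gene was called (limma adjusted p = 0.0429). In NIPs the widest difference under AC was 0.60 in NIP1-1, in PIP1 genes -0.28 in PIP1-2, and in SIPs -0.38 in SIP2-1. With DNP it was 0.47 in NIP1-1, -0.48 in PIP2-7, 0.24 in PIP1-3 and -0.47 in SIP2-1.

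Interaction contrasts tested these changes of the sugar difference directly. The glucose-over-mannitol difference was higher with DNP than in air for 3 members and lower for none. Over all rows 1.19% were called, 1.01% higher and 0.180% lower. They were TIP2-2 (4.44 ± 0.30, limma adjusted p = 0.000122), TIP1-1 (2.37 ± 0.28, limma adjusted p = 0.00305) and PIP1-2 (1.73 ± 0.29, limma adjusted p = 0.0177). Under AC the same 3 genes were called, where 1.15% of all rows were called, 1.01% higher and 0.147% lower. Their interaction was 2.90 ± 0.30 for TIP2-2 (limma adjusted p = 0.00354), 1.77 ± 0.28 for TIP1-1 (limma adjusted p = 0.0199) and 1.54 ± 0.29 for PIP1-2 (limma adjusted p = 0.037). Since the Glc and Mtl arrays enter both contrasts, the results with DNP and under AC are not independent.

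The interaction of TIP2-2 was called without any 1 of the 12 arrays. That of PIP1-2 with DNP was lost without either Glc array, Mtl replicate 1, either GlcDNP array or MtlDNP replicate 2 (limma adjusted p = 0.0554 to 0.0918). Under AC it was lost without any 1 of 10 arrays, those of MtlDNP being the exception, with the replicate number as a block (limma adjusted p = 0.0554), after quantile re-normalization and with the 8 compared arrays alone, at adjusted p of 0.0554 to 0.162. For TIP1-1 it was lost under AC without Glc replicate 1 or without any 1 of the Mtl, GlcAC or MtlAC arrays (0.0583 to 0.0989). PIP2-1 had an AC interaction of 1.13 ± 0.23 that missed the threshold (limma adjusted p = 0.0521) and was called with dim rows left out (limma adjusted p = 0.0248). In the subfamilies with no call the widest interactions with DNP were 0.64 in NIP2-1, 0.60 in PIP2-6 and 1.41 ± 0.65 in SIP2-1, and under AC -0.40 in NIP3-1 and 1.502 ± 0.65 in SIP2-1. For NIP1-1 the interactions were 0.13 with DNP (95% interval -0.64 to 0.91) and 0.26 under AC (-0.51 to 1.04).

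**Figure D2:**
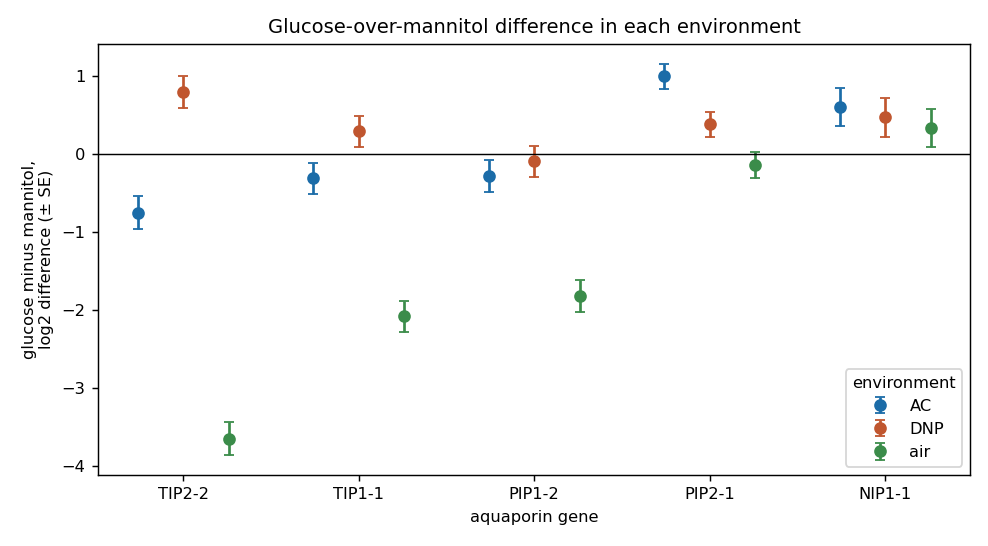
Glucose minus mannitol, as log2 difference with SE from limma (vertical axis), for 5 aquaporin genes (horizontal axis) under AC (blue), with DNP (orange) and in air without DNP (green), 2 arrays per condition. In air the difference was -3.65, -2.08 and -1.82 for TIP2-2, TIP1-1 and PIP1-2, while with DNP and under AC these 3 genes lay between -0.75 and 0.80.

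The effect of DNP was tested on each sugar against the same sugar in air without DNP. On mannitol 6 of the 27 genes fell and none rose: TIP2-2, PIP2-1, NIP1-1, PIP1-2, PIP1-1 and TIP1-1. On glucose 2 fell, PIP2-1 and NIP1-1, and 3 rose, all of them TIPs. Over all rows 16.3% were called on mannitol, 10.4% lower and 5.91% higher. On glucose 14.0% were called, 9.28% lower and 4.67% higher. The family's median was 0.17 on mannitol, beside 0.15 over all rows, and 0.16 on glucose, beside 0.10.

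TIP2-2 fell with DNP on mannitol, at 4.79 and 5.20 in MtlDNP, against 8.80 and 8.56 in Mtl. That is a 12.9-fold lower level (-3.69 ± 0.21, limma adjusted p = 5.57e-06), the widest difference of the family in any pairwise comparison. On glucose it stood at 5.64 and 5.94 in GlcDNP, against 5.00 and 5.07 in Glc, above it on every array but under the size threshold (0.75 ± 0.21, limma adjusted p = 0.0267). PIP1-2 likewise fell on mannitol, at 6.11 and 5.79 in MtlDNP, against 8.05 and 7.78 in Mtl (-1.97 ± 0.20, limma adjusted p = 0.0001). On glucose its difference was -0.24, with a 95% interval of -0.69 to 0.21.

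PIP1-1 (LOC4330248), the water channel RWC1, stood at 2.54 and 2.80 in MtlDNP, against 4.29 and 3.92 in Mtl. All of its DNP arrays lay below the Mtl arrays, and it fell 2.7-fold (-1.43 ± 0.27, limma adjusted p = 0.00328). TIP1-1 moved in opposite directions on the 2 sugars. It fell on mannitol, at 7.57 and 7.84 in MtlDNP against 8.84 and 8.80 in Mtl (-1.11 ± 0.20, limma adjusted p = 0.00265), and rose on glucose, at 8.05 and 7.94 in GlcDNP against 6.49 and 6.99 in Glc (1.26 ± 0.20, limma adjusted p = 0.00141). The fall on mannitol was under the size threshold after quantile re-normalization (-0.63) and without MtlDNP replicate 1 (-0.97).

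PIP2-1 fell with DNP on both sugars. It stood at 6.69 and 6.68 in GlcDNP, against 8.59 and 8.57 in Glc (-1.90 ± 0.16, limma adjusted p = 4.13e-05), and at 6.17 and 6.43 in MtlDNP, against 8.79 and 8.65 in Mtl (-2.42 ± 0.16, limma adjusted p = 1.02e-05). All 4 DNP arrays lay below all 4 arrays in air without DNP. NIP1-1 (LOC4328814), of the NIP group to which nodulin 26 of soybean belongs, fell likewise. Its levels were 4.29 and 4.93 in GlcDNP, against 7.15 and 7.10 in Glc, a 5.73-fold fall (-2.52 ± 0.24, limma adjusted p = 7.94e-05). On mannitol they were 4.33 and 3.94 in MtlDNP, against 7.01 and 6.57 in Mtl, a 6.29-fold fall (-2.65 ± 0.24, limma adjusted p = 5.26e-05).

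The TIP genes that rose with DNP on glucose were TIP1-1, TIP1-2 and TIP3-1. TIP3-1 (LOC4348981) belongs to the TIP3 class, known from the protein storage vacuoles of seeds. It stood at 5.03 and 4.83 in GlcDNP, against 3.55 and 3.21 in Glc, a 2.92-fold rise (1.55 ± 0.23, limma adjusted p = 0.00087). On mannitol it stood at 4.71 and 4.99 in MtlDNP, against 4.32 and 4.21 in Mtl (0.59 ± 0.23, limma adjusted p = 0.0703). TIP1-2 (LOC4324303) stood at 6.03 and 5.87 in GlcDNP, against 4.59 and 4.63 in Glc, a 2.52-fold rise (1.34 ± 0.19, limma adjusted p = 0.000765). Its difference on mannitol was 0.72 ± 0.19, and after quantile re-normalization it was 1.02 and called, which made the split on mannitol 5 lower and 1 higher.

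TIP3-2 (LOC4336464), the other TIP3 gene, stood at 3.47 on both MtlDNP arrays, against 2.32 and 2.63 in Mtl. Its difference of 0.99 ± 0.21 lay just under the size threshold (limma adjusted p = 0.00663), and without Mtl replicate 2 it was 1.15 and called. Its F call, with a range of 1.02, was lost after quantile re-normalization and without any 1 of Glc replicate 1, Glc replicate 2, Mtl replicate 1 or either MtlDNP array. Beside these TIP3 values, 8 of the 10 embryo markers rose with DNP on glucose, where 4.67% of all rows did. None of the 10 fell (median 1.87). RAB16B, RAB16C, RAB16D and RAB21, which were among those that rose, have consecutive locus numbers. The 10 markers are not taken as independent of each other. On mannitol 7 rose and 1 fell (median 1.64), where 5.91% of all rows rose and 10.4% fell. The oleosin gene OLE18 rose by 1.95 on glucose and 2.07 on mannitol. GLB1 was the gene that fell on mannitol (-1.15), and whether this symbol match is an embryo marker was not checked. OsVP1 was not called with DNP (-0.08 on glucose and 0.55 on mannitol). Under AC 2 of the 10 rose on glucose, where 2.01% of all rows did. On mannitol 5 rose and 1 fell under AC, where 3.56% of all rows rose and 8.65% fell. The part of this marker shift in the TIP values was not tested.

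The SIP and remaining NIP and PIP2 genes gave no call with DNP. PIP2 proteins are known in maize as the more active water channels of the PIPs. SIP1-1 had a difference of -0.37 ± 0.22 on glucose and -0.72 ± 0.22 on mannitol (limma adjusted p = 0.0325), which became a call without Mtl replicate 2 (-1.01). SIP2-1 had -1.13 ± 0.46 there (limma adjusted p = 0.087), and was called with the compared arrays alone (0.032). NIP4-1 was higher on every DNP array than in air, at 3.88 and 3.87 in GlcDNP against 2.87 and 3.05 in Glc, but under the size threshold (0.92 ± 0.22, limma adjusted p = 0.0137). Without Glc replicate 2 the difference was 1.01 and called, and on mannitol it was 1.08 and called without MtlDNP replicate 2, against 0.79 with all arrays. PIP2-7 stood at 4.04 and 3.64 in MtlDNP, against 2.95 and 2.91 in Mtl (0.91 ± 0.19, limma adjusted p = 0.00668), and at 1.11, a call, without MtlDNP replicate 2. PIP1-3 had -0.65 with DNP on glucose, and -1.31 and a call without Glc replicate 1.

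AC was tested in the same way on each sugar. On mannitol 7 of the 27 genes fell and none rose, where 12.2% of all rows were called, 8.65% lower and 3.56% higher. On glucose 4 fell and none rose, where 5.25% of all rows were called, 3.25% lower and 2.01% higher. The family's median stood at 0.00 on mannitol, beside 0.10 over all rows, and at 0.02 on glucose, beside 0.03. The Glc and Mtl arrays are shared with the DNP comparisons, so that the counts for AC and for DNP are not independent.

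The genes that fell under AC on both sugars were PIP1-1, PIP1-2, PIP2-1 and NIP1-1. PIP2-1 stood at 7.24 and 7.26 in GlcAC, against 8.59 and 8.57 in Glc (-1.33 ± 0.16, limma adjusted p = 0.00101). On mannitol it stood at 6.33 and 6.18 in MtlAC, against 8.79 and 8.65 in Mtl, a 5.53-fold fall (-2.47 ± 0.16, limma adjusted p = 1.66e-05). NIP1-1 stood at 5.18 and 5.13 in GlcAC, against 7.15 and 7.10 in Glc (-1.97 ± 0.24, limma adjusted p = 0.00112). In MtlAC its levels were 4.52 and 4.59, against 7.01 and 6.57 in Mtl (-2.23 ± 0.24, limma adjusted p = 0.000201).

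Both called PIP1 genes had their lowest means under AC, but neither was called between AC and DNP on either sugar. PIP1-2 stood at 5.41 and 5.25 in MtlAC, against 8.05 and 7.78 in Mtl, 5.99-fold lower (-2.58 ± 0.20, limma adjusted p = 3.33e-05). It stood at 4.84 and 5.27 in GlcAC, against 6.04 and 6.15 in Glc (-1.04 ± 0.20, limma adjusted p = 0.0121). PIP1-1 stood at 2.46 and 2.18 in MtlAC, against 4.29 and 3.92 in Mtl (-1.78 ± 0.27, limma adjusted p = 0.00124), and at 2.26 and 2.14 in GlcAC, against 2.91 and 3.70 in Glc (-1.10 ± 0.27, limma adjusted p = 0.031). The AC levels of PIP1-1 were close to the lower quartile of all values, 2.11 to 2.31 by condition, and are not shown to be above background. On glucose both calls depended on single arrays. PIP1-1 had a difference of -0.71 without Glc replicate 2, -1.16 without GlcAC replicate 1 and -1.04 without GlcAC replicate 2 (limma adjusted p = 0.113 to 0.195), with none of these a call. PIP1-2 had -0.99 without Glc replicate 2 and -0.83 without GlcAC replicate 1. Both calls were also lost with only the compared arrays (limma adjusted p = 0.0977 and 0.0585), and that of PIP1-2 after quantile re-normalization (-0.91). PIP1-3 was -1.17 ± 0.34 on glucose, which missed the threshold (limma adjusted p = 0.0638) and was a call without Glc replicate 1 (-1.83).

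TIP2-2, TIP1-1 and SIP2-1 fell under AC on mannitol. TIP2-2 stood at 5.80 and 5.77 in MtlAC, against 8.80 and 8.56 in Mtl, 7.45-fold lower (-2.90 ± 0.21, limma adjusted p = 2.5e-05). Its glucose arrays, at 5.23 and 4.84 in GlcAC and 5.00 and 5.07 in Glc, overlapped, and the 95% interval of that difference was -0.47 to 0.47. TIP1-1 stood at 7.09 and 7.18 in MtlAC, against 8.84 and 8.80 in Mtl (-1.68 ± 0.20, limma adjusted p = 0.000311). On glucose its difference was 0.08, with a 95% interval of -0.36 to 0.53. SIP2-1 stood at 3.03 and 1.78 in MtlAC, against 3.77 and 4.21 in Mtl (-1.59 ± 0.46, limma adjusted p = 0.0331). That call was lost without Mtl replicate 1 (-1.81), Mtl replicate 2 (-1.37) or MtlAC replicate 2 (-0.96), at adjusted p of 0.0811 to 0.192, and with only the compared arrays (0.0563). On glucose no TIP or SIP gene was called under AC, with the widest differences 0.58 ± 0.23 in TIP3-1 and -0.10 ± 0.22 in SIP1-1.

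**Figure D3:**
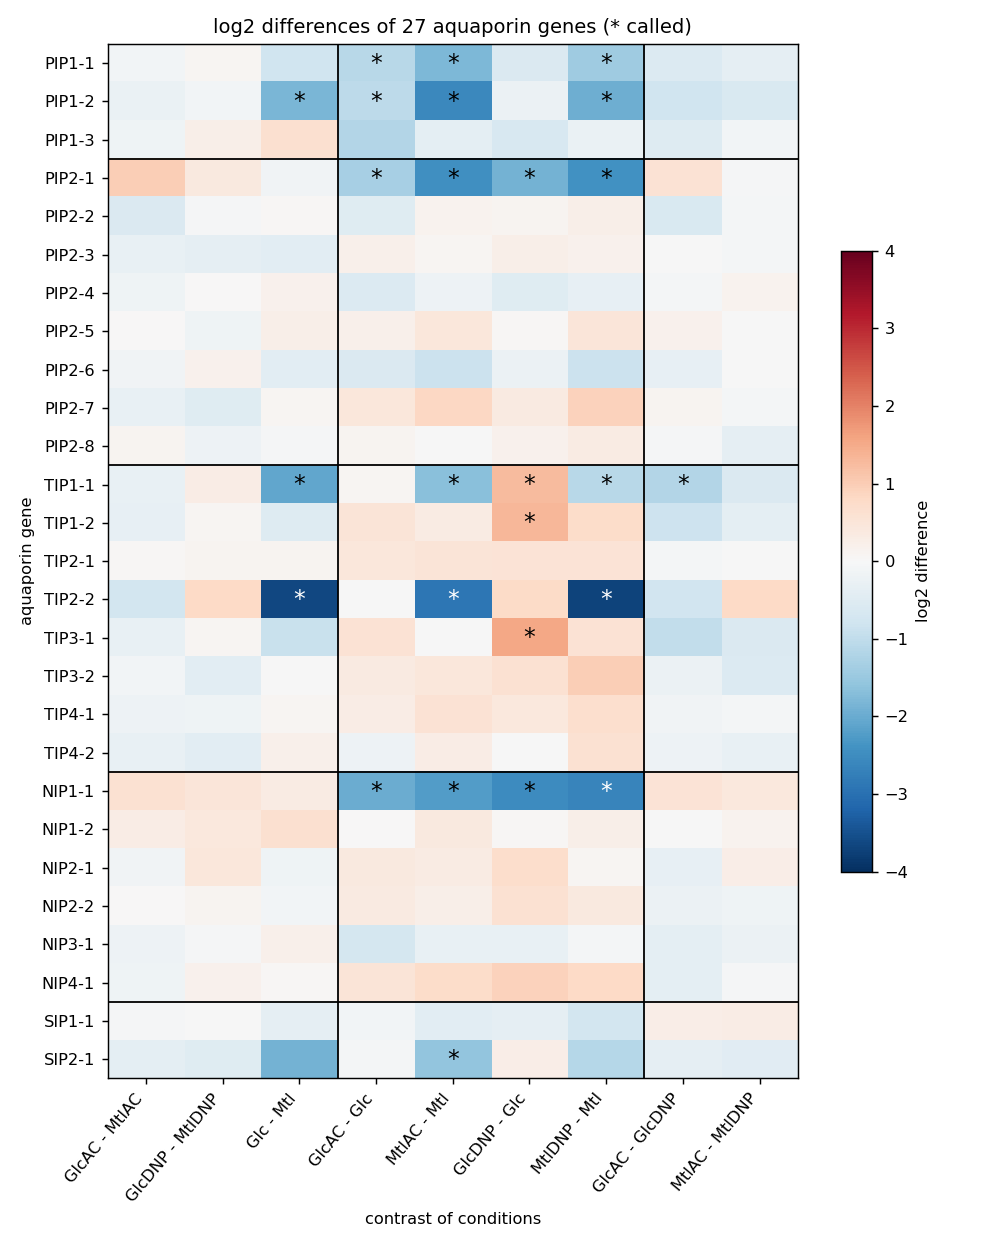
Log2 difference (colour, red higher and blue lower in the condition named first) of each of the 27 aquaporin genes (vertical axis, by subfamily from PIP1 at the top to SIP) in 9 pairwise contrasts (horizontal axis), where asterisks mark calls. The sugar contrasts hold calls in air only, with 3, and DNP and AC on mannitol hold 6 and 7, all lower.

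A direct contrast of AC with DNP on the same sugar showed where the 2 treatments differed. On glucose 1 member was lower under AC than with DNP, TIP1-1, and none was higher, where 5.26% of all rows were called, 1.30% lower and 3.97% higher. It stood at 6.76 and 6.88 in GlcAC, against 8.05 and 7.94 in GlcDNP (-1.17 ± 0.20, limma adjusted p = 0.00562). TIP3-1 (-0.97 ± 0.23, limma adjusted p = 0.026), TIP1-2 (-0.82 ± 0.19, limma adjusted p = 0.0264) and PIP1-2 (-0.80 ± 0.20, limma adjusted p = 0.0381) lay under the size threshold and were called after quantile re-normalization (-1.05, -1.03 and -1.001). TIP1-2 was also called without GlcAC replicate 2 (-1.03). The widest differences in the other subfamilies were -0.60 in PIP2-2, 0.55 in NIP1-1 and -0.36 in SIP2-1.

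On mannitol no member was called between AC and DNP, where 2.05% of all rows were, 1.56% higher and 0.488% lower. In limma 5 members had an unadjusted p under 0.05, as did 5547 of all 36643 rows. TIP2-2 stood at 5.80 and 5.77 in MtlAC, against 4.79 and 5.20 in MtlDNP (0.79 ± 0.21, limma adjusted p = 0.0871). PIP2-1 had a difference of -0.05 with a 95% interval of -0.41 to 0.31. For NIP1-1 it was 0.42, with an interval of -0.13 to 0.96, and the widest in the other subfamilies were -0.62 in PIP1-2, -0.36 in PIP2-8 and -0.46 in SIP2-1. The 8 embryo markers that rose with DNP on glucose include the 7 that were lower in GlcAC than in GlcDNP (median of all 10 markers -1.13). Over all rows 1.30% were lower there. The part of that marker shift in the TIP values was not tested.

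The 3 PIP2 genes PIP2-4, PIP2-5 and PIP2-1 follow each other in the gene order of the RefSeq table with no other protein-coding gene between them. Of these neighbours only PIP2-1 was called in any contrast run. PIP2-5 (LOC4343121) ranged from 4.06 to 5.03 over the 12 arrays, and its condition means spanned 0.47. PIP2-4 (LOC4343119) ranged from 1.69 to 2.58, under the lower quartile of all values in 4 conditions, so that a change in it could go unseen. The probe sequences are not used here, and cross-hybridization between close family members was not tested.

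**Figure D4:**
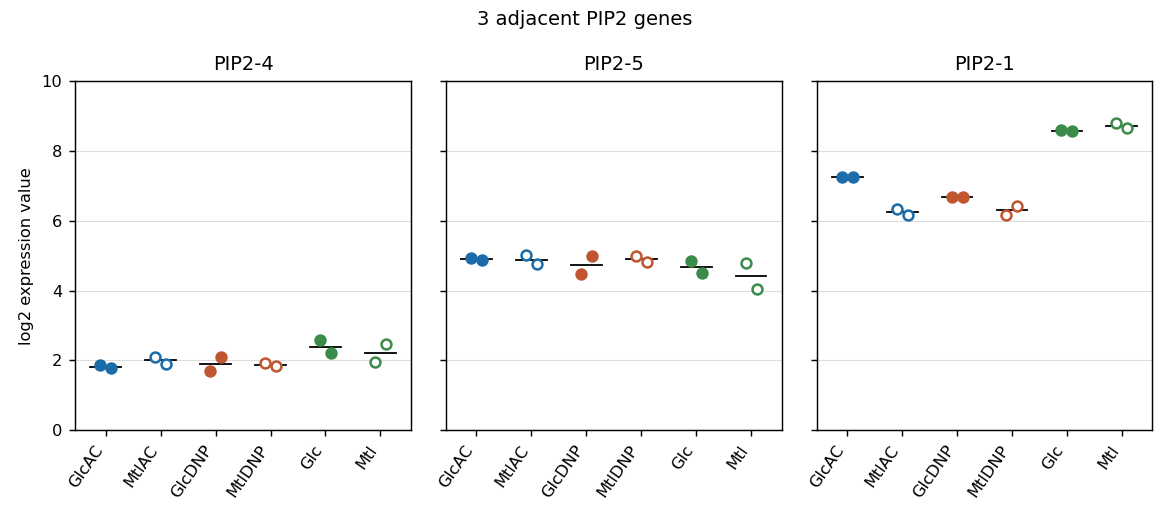
Log2 expression value (vertical axis) on each array of 3 PIP2 genes in their gene order, by condition (horizontal axis); points are arrays, filled for glucose and open for mannitol, and bars are means of 2 arrays. Each panel is read by itself: PIP2-1 lay at 6.17 to 7.26 on the 8 AC and DNP arrays and at 8.57 to 8.79 in air without DNP, while PIP2-5 stayed within 4.06 to 5.03.

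The 18 members called in no pairwise or interaction contrast include 7 PIP2 genes, 5 NIPs, 4 TIPs, PIP1-3 and SIP1-1, and 1 of them, TIP3-2, was called by the F test. NIP2-2, the silicon channel Lsi6, PIP2-8 and TIP2-1 lay under the lower quartile of all values in all 6 conditions, with levels of 1.17 to 2.09, 0.93 to 1.51 and 1.31 to 2.03 over the arrays. NIP2-1, the silicon influx channel Lsi1 of rice roots, ranged from 2.91 to 3.66. Its partner in silicon transport, the efflux gene Lsi2, ranged from 0.88 to 1.58 and was not called. NIP3-1 (DTE1), a boron channel in rice, stood at 5.38 and 5.03 in GlcAC, against 5.93 and 5.89 in Glc (-0.71 ± 0.19, limma adjusted p = 0.0474), under the size threshold. PIP2-6 stood at 2.56 and 2.08 in MtlAC and 2.58 and 2.12 in MtlDNP, against 2.66 and 3.74 in Mtl, 2 arrays that differed by 1.08. Without Mtl replicate 1 it was called lower under AC (-1.42) and with DNP (-1.39) on mannitol. TIP4-2 had the widest gap between arrays of a condition, 4.39 and 2.63 in MtlAC.

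Other genes of water and solute balance were matched by symbol alone. They give an incomplete list, which may hold genes of another function. Of 27 potassium uptake genes 1 fell with glucose in air, where 1.53% of all rows did, HAK10, a potassium transporter of the vacuolar membrane in rice. HAK10 stood at 4.38 and 4.35 in Glc, against 7.01 and 6.58 in Mtl (-2.43 ± 0.27, limma adjusted p = 0.000911), and its other 8 arrays lay at 3.12 to 4.68. Its level was thus highest in Mtl, as in TIP2-2, and its interactions were 3.18 ± 0.38 with DNP (limma adjusted p = 0.00322) and 2.66 ± 0.38 under AC (limma adjusted p = 0.0139). With DNP on mannitol 4 of the 27 fell, among them HAK10 (-3.49), HAK24 (-1.52) and HAK9 (-1.37), against 10.4% of all rows, and under AC on mannitol 2 fell, HAK10 (-2.38) and HAK9 (-1.26), 7.41% of the list beside 8.65% of all rows. On glucose HAK9 was the 1 gene lower with DNP (-1.52), against 9.28% of all rows, and under AC (-1.28), against 3.25%. HAK7 was the 1 gene of the 27 higher in GlcAC than in GlcDNP (1.10), where 3.97% of all rows were. HAK24 was the 1 gene higher in MtlAC than in MtlDNP (1.39), where 1.56% of all rows were.

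VATP-P1, named for the proteolipid of the vacuolar proton pump that energises transport into the vacuole, was the 1 vacuolar pump gene matched. It stood at 6.89 and 7.06 in GlcDNP, against 9.24 and 9.11 in Glc (-2.20 ± 0.18, limma adjusted p = 3.54e-05), and at 6.62 and 7.06 in MtlDNP, against 9.22 and 9.23 in Mtl (-2.39 ± 0.18, limma adjusted p = 2e-05). In MtlAC it stood at 7.95 and 8.06 (-1.22 ± 0.18 against Mtl, limma adjusted p = 0.00129), and in GlcAC at 8.71 on both arrays (-0.47 against Glc, limma adjusted p = 0.171). Its sugar difference in air was -0.05, and it was higher under AC than with DNP on glucose (1.74 ± 0.18) and mannitol (1.16 ± 0.18). The search for plasma membrane proton pumps matched 1 gene, OSA15, by its symbol alone, and whether it is such a pump was not checked. It fell with DNP on mannitol (-1.03). No vacuolar sodium/proton antiporter gene was matched.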

How the data were processed

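RNA of 12 arrays, 2 in each of 6 conditions, was measured on the Affymetrix RJpGene-1_1-st array. The deposited log2 values were made by RMA, for core probe sets in Expression Console, per the labels' protocols. The submitters' processing notes list Affymetrix Power Tools. RMA compresses differences of dim probe sets, so that their folds are understated. Neither versions nor a genome build is given in the sources used here, and the log base was taken as 2 from the range of values. Of 36643 rows 24161 map to 1 gene in the platform's table; names come from the RefSeq gene table (assembly ASM3414082v1).

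Differences were fitted with limma 3.58.1 in R 4.3.3 over all rows and arrays, 1 coefficient per condition, with Benjamini-Hochberg adjustment over 36643 rows. Residual degrees of freedom were 6, and 3.825 came from the prior. The fit was tested on simulated data. There were 11 contrasts and 1 F test. Rows under the lower quartile of a condition were taken as dim. Genes are named when called in a contrast or by F, and otherwise as the widest of their subfamily; some further members were chosen after their values were seen. The members and lists were chosen with earlier results of these data known. Replicate numbers did not pair the arrays: deviations of same-numbered arrays correlated at -0.021 to 0.087 over 15 pairs of conditions. Alternatives were quantile re-normalization, a filter on dim rows (condition mean at least the median in the highest condition, 22278 rows and 21 members kept), the replicate block, only the compared arrays, and each array left out. The number of arrays limits the precision. Scan dates were not used here, and array batches were not tested.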

Additional observations from a re-analysis of the deposited data

Results flagged for a closer look

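A sugar difference that differed between environments, by limma's interaction contrast, was found for 3 aquaporin genes. Relative to air, the glucose-over-mannitol log2 difference was higher with DNP by 4.44 for TIP2-2, 2.37 for TIP1-1 and 1.73 for PIP1-2. Under AC it was higher by 2.90 for TIP2-2, 1.77 for TIP1-1 and 1.54 for PIP1-2. The Glc and Mtl arrays enter every one of these values. Groups of 2 arrays are too small for the test for single outlying arrays.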

How the results depend on the processing

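Of 41 calls of aquaporin genes over the contrasts and the F test, 33 were kept under every alternative run, 8 were lost under at least 1 and none changed sign; 23 further calls appeared under at least 1. With only the compared arrays the count for AC on glucose was 2 in place of 4. After quantile re-normalization the count for AC against DNP on glucose was 4 in place of 1. With 1 array left out, the counts ranged from 0 to 1 for sugar under AC, 2 to 5 for AC on glucose, 1 to 2 for AC against DNP on glucose, and 1 to 3 for the interaction of sugar with AC. The replicate block removed 1 call, the AC interaction of PIP1-2 (limma adjusted p = 0.0554), changed no other, and left 2 members called for that interaction; the numbers do not pair the arrays. The cause of these changes was not tested. With 1 array left out, the remaining array of its condition is assumed to vary like the others. Calls of dim genes are limited by background.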
